A study of Mus musculus with 9 samples.

Results

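The unfolded protein response and the integrated stress response were followed through 37 named genes in mouse liver, taken as every probe whose gene symbol in the array's annotation is one of them. Of the 37, 36 had a probe (62 probes in all) and 32 could be tested, that is, were above background (detection p-value below 0.05) on at least 3 of the 9 arrays, out of 10408 genes tested in the series. They fell into chaperones and folding enzymes (17 genes, 13 tested), endoplasmic reticulum (ER) degradation (7 genes, 6 tested), sensors and transcription factors (5 genes, 5 tested) and the ATF4 arm (8 genes, 8 tested). Canx, Manf, Ero1a and Derl1 had probes that were above background on too few arrays to be tested, and Dnajb11 was not analysed here. Of the 32 tested genes, 27 were above background on all 9 arrays.

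The ER folds and modifies secreted and membrane proteins, and the liver, which secretes most plasma proteins, carries a large load of them. When unfolded proteins accumulate, the membrane sensors IRE1 (Ern1), PERK (Eif2ak3) and ATF6 are activated. IRE1 splices Xbp1 mRNA, and spliced XBP1 together with cleaved ATF6 switches on chaperones, folding enzymes and the machinery that exports misfolded proteins for degradation. PERK phosphorylates the translation factor eIF2-alpha, which slows general translation while favouring translation of ATF4, an activator of amino acid and stress genes. Splicing, cleavage, phosphorylation and translation are not read by these arrays, which measure the amount of mRNA.

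The RNA came from the liver of male C57BL/6 mice aged 8 weeks and was measured on 9 Illumina bead arrays. Euthyroid controls had 3 arrays. Mice made hyperthyroid with triiodothyronine (T3), the active thyroid hormone, over 3 days had 3. The remaining 3 were from mice that received T3 and an siRNA against the transcription factor FoxO1 by hydrodynamic tail vein injection, a rapid large-volume injection that delivers nucleic acids mainly to the liver. The labels name no group with a control siRNA or a mock injection, so in the comparisons of these mice FoxO1 siRNA and the injection cannot be told apart. Nor do they state that arrays of a group came from different mice, and the p-values then reflect only the spread between these samples, which may be technical. The series' title asks which thyroid hormone target genes depend on FoxO1.

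On the 9 arrays, 16481 to 18357 probes were above background, and the number of arrays limits the precision. Values below are background-corrected, quantile-normalised log2 signals, differences are of group means on that scale with the standard error (SE) of the fit, and "called" means a Benjamini-Hochberg adjusted p below 0.05 over all 10408 genes in limma. Foxo1 itself measured 8.72, 8.87 and 8.73 in euthyroid liver, 9.22, 9.63 and 9.78 with T3, and 8.44, 8.55 and 8.44 with T3 plus siRNA. It was higher with T3 than in euthyroid liver and lower with T3 plus siRNA than with T3, with a log2 difference of -1.07 (adjusted p = 0.00172). Of 9 tested hepatocyte markers 1 was called higher and 1 lower with T3, 0 and 2 with T3 plus siRNA against T3, and 0 and 3 (Alb, Hpd and Cyp2e1) with T3 plus siRNA against euthyroid liver. Their mean log2 signal stood at -0.31, -0.22 and -0.27 relative to the euthyroid mean on the siRNA arrays, and their summed linear signal, which the brightest probes carry, between 267180 and 283952 on every array. Macrophage markers moved with the groups: their sum was 9730 to 10296 in euthyroid liver, 11297 to 12706 with T3 and 16200 to 20409 with T3 plus siRNA, and 1, 6 and 7 of 9 tested were called higher in the 3 comparisons taken below in turn. In whole liver, fewer cells of a type and less RNA per cell cannot be told apart.

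Promoters are shown first, because many of these genes are known by a shared control element. The ER stress response element (ERSE), the binding site of ATF6 and XBP1, reads CCAAT, then 9 bases, then CCACG. The 250 bases before the start site were searched on both strands in the RefSeq promoter table (build GRCm38.p6), in which 33 of the 37 genes have an entry. Derl1, Hyou1, Manf and Atf6 have none there. The element was present in 37 of 32851 promoters (0.113%) and in 10 of the 33 members (30.3%): Calr, Canx, Creld2, Derl3, Dnajc3, Ero1b, Hsp90b1, Hspa5, Pdia6 and Syvn1. Each is printed 5′ to 3′ on the strand on which it reads CCAAT to CCACG, with the element in capitals and 8 bases on each side. Hsp90b1 held 2 of them, in opposite orientations.
Hspa5, chr2:34772017-34772051, plus strand: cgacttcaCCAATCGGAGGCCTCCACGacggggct
Hsp90b1, chr10:86705525-86705559, plus strand: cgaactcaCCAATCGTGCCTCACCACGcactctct
Hsp90b1, chr10:86705630-86705664, minus strand: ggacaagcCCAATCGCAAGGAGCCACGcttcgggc
Calr, chr8:84847067-84847101, plus strand: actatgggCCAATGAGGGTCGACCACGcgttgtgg
Canx, chr11:50325792-50325826, minus strand: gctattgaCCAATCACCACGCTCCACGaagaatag
Pdia6, chr12:17266483-17266517, plus strand: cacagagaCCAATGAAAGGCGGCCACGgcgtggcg
Dnajc3, chr14:118937819-118937853, plus strand: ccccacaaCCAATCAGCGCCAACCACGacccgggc
Creld2, chr15:88819512-88819546, minus strand: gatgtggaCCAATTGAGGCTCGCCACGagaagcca
Ero1b, chr13:12565674-12565708, minus strand: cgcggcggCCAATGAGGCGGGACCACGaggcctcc
Derl3, chr10:75893234-75893268, minus strand: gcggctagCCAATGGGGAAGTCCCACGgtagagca
Syvn1, chr19:6046524-6046558, plus strand: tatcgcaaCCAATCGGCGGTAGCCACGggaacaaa
The CCAAT and CCACG ends are common to all 11 by the search, while the 9 bases between them differ from gene to gene.

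The promoter of Hspa5, the gene of the chaperone BiP, is given whole (chr2:34771840-34772089, plus strand) because BiP is the classical readout of ER stress. Its exact match to the ERSE letters begins 65 bases before the start, and near matches were not searched for.
Hspa5 promoter: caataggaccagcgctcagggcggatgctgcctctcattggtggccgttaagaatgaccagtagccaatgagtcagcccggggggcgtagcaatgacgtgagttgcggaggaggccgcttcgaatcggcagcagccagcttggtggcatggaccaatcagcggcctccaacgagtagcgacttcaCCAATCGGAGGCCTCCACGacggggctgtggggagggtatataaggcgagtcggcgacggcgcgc
Herpud1 was called higher with T3 and lower again with T3 plus siRNA, on both of its probes, so its promoter is given too (chr8:94386179-94386428, plus strand). It held the compact form of the element, ERSE-II, which reads ATTGG, 1 base, CCACG and was present in 10 promoters of the table (0.0304%). It also held the core of the C/EBP-ATF response element, TGATGNAA, on the opposite strand, so that it reads TTGCATCA here; both are in capitals.
Herpud1 promoter: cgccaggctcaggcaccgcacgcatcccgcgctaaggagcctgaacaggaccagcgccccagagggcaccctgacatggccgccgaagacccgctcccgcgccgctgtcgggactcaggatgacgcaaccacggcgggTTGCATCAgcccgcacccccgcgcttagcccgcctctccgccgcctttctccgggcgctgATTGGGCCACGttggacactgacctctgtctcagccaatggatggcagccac
The C/EBP-ATF core was present in 1134 promoters (3.45%) and in 4 members (12.1%), which besides Herpud1 were Asns, Atf3 and Chac1, all of the ATF4 arm. The 3 further matches are printed on the strand on which they read TGATGNAA, with 8 bases on each side.
Asns, chr6:7693217-7693240, minus strand: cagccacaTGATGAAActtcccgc
Atf3, chr1:191183428-191183451, plus strand: ggacttggTGATGCAAgtgcgaga
Chac1, chr2:119351041-119351064, minus strand: ggcaggagTGATGCAAcggcaggg
The UPRE, TGACGTGG, was present in 185 promoters (0.563%) and in 0 of the 33 members; no match says only that these letters are not in this window. No 2 matches overlapped in a member's promoter.

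After 3 days of T3, 5 of 13 tested chaperones and folding enzymes were called higher than in euthyroid liver, 0 lower. Of the 32 tested genes 7 were called higher, where 7.80% of all genes tested were, and 1 was called lower, where 10.6% of all genes were. The median difference of the 32 was 0.19 on the log2 scale, against -0.05 over all genes. Among the 27 members above background on all 9 arrays 6 were higher and 0 lower. The 5 chaperones and folding enzymes were Hspa5, Calr, Pdia3, Dnajb9 and Ero1b, each above background on every array. The sensors and transcription factors and the ATF4 arm gave 0 calls of 5 and 0 of 8 in limma, where an unadjusted p below 0.05 picked 1 gene in each, Xbp1 (lower) and Ddit4 (higher). Leaving out euthyroid replicate 1 left 3 of the 7 members higher, and leaving out euthyroid replicate 2 left Derl3 untested and 0 lower.

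Hspa5 encodes BiP, the main Hsp70 chaperone of the ER. It measured 7.54, 7.53 and 7.63 in euthyroid liver, 8.24, 8.37 and 8.65 with T3, and 8.06, 8.22 and 8.44 with T3 plus siRNA. Every array of both T3 groups lay above every euthyroid array. The difference was 0.85 (SE 0.14, 1.81-fold, adjusted p = 0.00496) with T3 and 0.68 (1.60-fold, adjusted p = 0.00737) with T3 plus siRNA, both against euthyroid liver. Between the T3 groups it was -0.18 (adjusted p = 0.383), and the arrays overlapped.

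Calr encodes calreticulin, a lectin chaperone that binds glycoproteins while they fold. It measured 7.83, 7.82 and 7.72 in euthyroid liver, 8.61, 8.89 and 8.74 with T3, and 8.39, 9.02 and 9.01 with T3 plus siRNA. Its difference from euthyroid liver was 0.96 (SE 0.17, 1.94-fold, adjusted p = 0.00709) with T3 and 1.02 (2.03-fold, adjusted p = 0.00355) with T3 plus siRNA. The array of T3 plus siRNA replicate 1 was the lowest of its group and still lay above all 3 euthyroid arrays.

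Pdia3, a disulfide isomerase that works with calreticulin, measured 12.54, 12.58 and 12.54 in euthyroid liver, 12.84, 13.08 and 13.13 with T3, and 13.07, 13.29 and 13.48 with T3 plus siRNA. It was 0.47 higher with T3 (SE 0.13, adjusted p = 0.0345), a call lost when any 1 euthyroid array was left out (adjusted p up to 0.156 over all alternatives). With T3 plus siRNA it was 0.73 higher than in euthyroid liver (adjusted p = 0.00434).

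Ero1b encodes an oxidase that supplies the isomerases with disulfides, and was formerly named Ero1lb. It measured 9.43, 9.82 and 9.80 in euthyroid liver, 10.45, 10.56 and 10.47 with T3, and 10.40, 10.55 and 10.60 with T3 plus siRNA. Both T3 groups lay well clear of the euthyroid arrays and at the same height as each other, with differences from euthyroid liver of 0.81 (SE 0.13, adjusted p = 0.0045) and 0.83 (adjusted p = 0.0024). A second, dim probe, above background on 6 of 9 arrays, differed by 0.05 with T3, and with the mean of both probes the T3 call was lost (adjusted p = 0.0725).

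Dnajb9 encodes ERdj4, an ER co-chaperone that represses IRE1. It measured 10.58, 10.65 and 11.16 in euthyroid liver, 11.37, 11.68 and 11.62 with T3, and 11.95, 12.03 and 12.07 with T3 plus siRNA. On its brightest probe, which gave these values, no array of one group overlapped another group. The difference was 0.76 (SE 0.16, 1.69-fold, adjusted p = 0.0131) with T3, lost without euthyroid replicate 1 (adjusted p = 0.0523), and 1.22 (2.33-fold, adjusted p = 0.00133) with T3 plus siRNA against euthyroid liver. The step between the T3 groups, 0.46, did not pass (adjusted p = 0.072). A second probe gave 0.74 with T3 and 0.98 with T3 plus siRNA against euthyroid liver. Between the T3 groups it differed by 0.24 (adjusted p over all probes = 0.327), and their arrays overlapped.

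**Figure D1:**
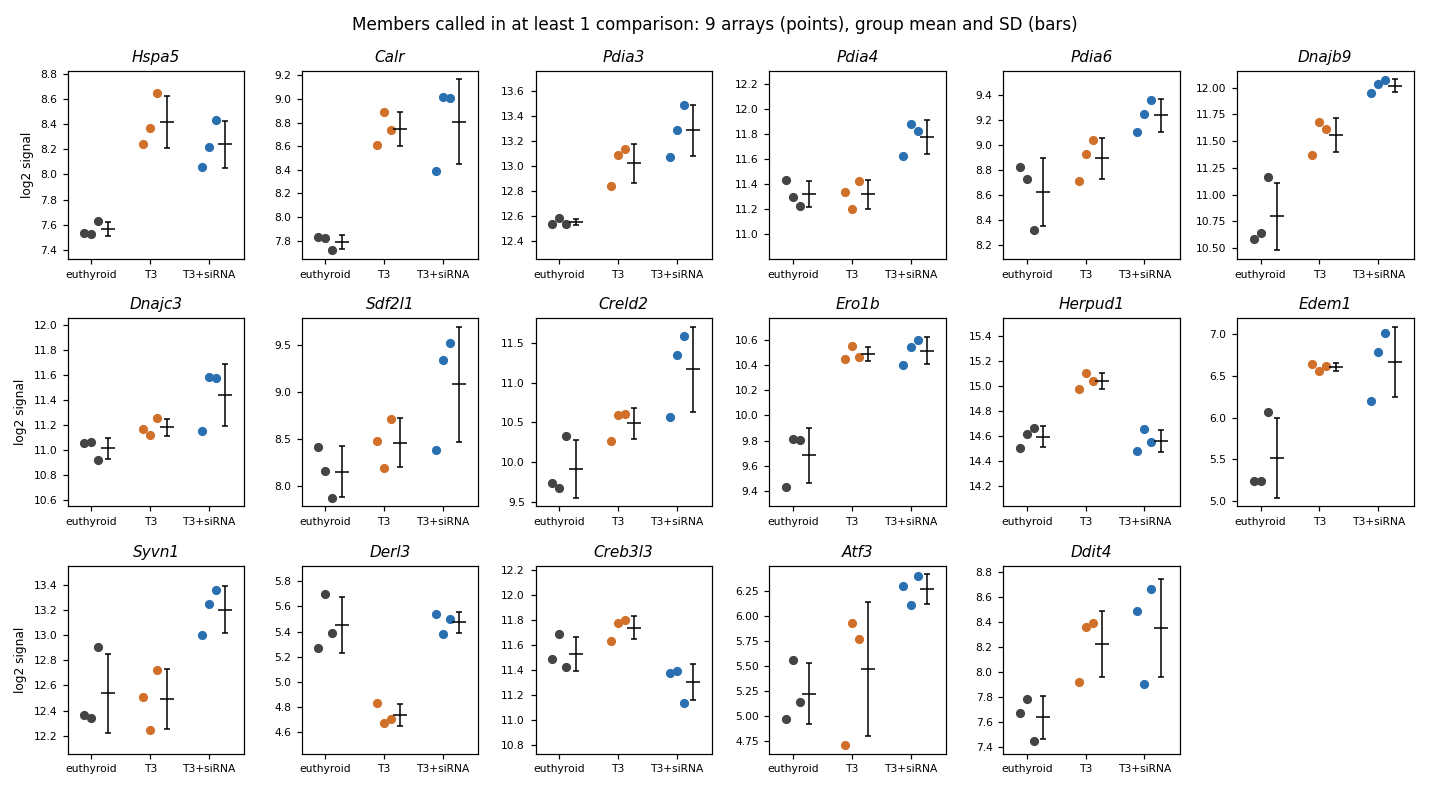
Log2 normalised signal (vertical axes) of the 17 members called in at least 1 comparison, in euthyroid, T3 and T3 plus FoxO1 siRNA liver. Points are the 9 arrays, in replicate order within a group, and bars the group mean with its SD (n = 3). Hspa5, Calr and Ero1b have no euthyroid array as high as any array of the T3 groups. Herpud1, on its brightest probe, is high in the T3 group alone.

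The fit also called 3 genes of ER degradation in T3 against euthyroid liver, of which Edem1 and Derl3 lay near background. Herpud1, a membrane protein that gathers the degradation complex, measured 14.50, 14.62 and 14.67 in euthyroid liver, 14.97, 15.10 and 15.04 with T3, and 14.48, 14.65 and 14.55 with T3 plus siRNA. The T3 arrays lay above both other groups, which overlapped. Its difference was 0.44 (SE 0.10, adjusted p = 0.0153) for T3 against euthyroid liver, lost with median scaling in place of quantiles (adjusted p = 0.189) and without euthyroid replicate 1. A second probe measured 13.54, 13.81 and 13.77, then 14.31, 14.57 and 14.38, then 13.80, 14.12 and 13.96 in the same order of groups, and was called higher with T3 as well (0.71, adjusted p over all probes = 0.00799; 18.6% of the 18581 probes were called in this comparison).

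Edem1, a lectin that draws misfolded glycoproteins out of folding cycles, measured 5.24, 5.24 and 6.06 in euthyroid liver, 6.64, 6.56 and 6.62 with T3, and 6.20, 6.79 and 7.02 with T3 plus siRNA. Only 1 of the 3 euthyroid arrays was above background, against all 6 of the T3 groups, so the gene entered the test through the groups in which it was high. The fit called it higher with T3 (adjusted p = 0.0195), and no size is given because the euthyroid mean rests on values mostly at background. The call was lost when euthyroid replicate 1 or 2 or T3 replicate 3 was left out. Derl3, a member of the Derlin family of the export channel, was dim throughout: 5.27, 5.70 and 5.39 in euthyroid liver, 4.83, 4.67 and 4.70 with T3, and 5.54, 5.38 and 5.50 with T3 plus siRNA. It was not above background on any T3 array and only on 1 euthyroid and 2 siRNA arrays, so no fold is given. The fit called it lower with T3 (adjusted p = 0.00689).

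The remaining chaperones had T3 differences from 0.00 to 0.58 that did not pass. Hyou1, an ER chaperone of the Hsp110 type, stood at 6.61 ± 0.26 (SD, n = 3) in euthyroid liver and 7.13 ± 0.37 with T3 (0.51, adjusted p = 0.0995). Hsp90b1, the Hsp90 of the ER, stood at 13.50 ± 0.08 and 13.82 ± 0.30 (0.32, adjusted p = 0.168). Both passed without T3 replicate 1, the lowest T3 array of each (adjusted p = 0.0295 for Hyou1 and 0.0461 for Hsp90b1). P4hb, the prototype of the disulfide isomerases, was level at 14.90 ± 0.12 and 14.91 ± 0.06.

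Among the sensors and transcription factors, Xbp1 mRNA was at 14.02, 13.97 and 14.03 in euthyroid liver, 13.56, 13.35 and 13.47 with T3, and 14.33, 13.90 and 13.48 with T3 plus siRNA. The T3 arrays lay below all euthyroid arrays, and the siRNA arrays spanned both. The difference with T3, -0.54 (SE 0.19), did not pass (adjusted p = 0.0708), but passed in 7 of 19 alternative analyses, in the same direction. The probe counts total Xbp1 mRNA and does not separate the spliced form. Ern1 measured 10.27, 10.62 and 10.15, then 10.18, 10.38 and 10.32, then 10.76, 10.48 and 10.01, and differed by -0.06 with T3. A second, dim probe of Ern1 was above background on 2 euthyroid, 0 T3 and 2 siRNA arrays, so no size is given. The fit over probes called it lower with T3 (adjusted p over all probes = 0.0235). Eif2ak3 measured 5.41, 5.58 and 5.83, then 5.39, 5.70 and 5.78, then 5.51, 5.91 and 5.73, and Atf6 measured 5.80, 6.15 and 5.30, then 5.03, 5.76 and 5.45, then 5.25, 5.68 and 5.49. Both were near background, above it on 7 and 5 of 9 arrays.

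The ATF4 arm stayed uncalled with T3. Atf4 itself measured 12.17, 12.57 and 12.44 in euthyroid liver, 12.27, 12.45 and 12.11 with T3, and 12.78, 12.52 and 12.27 with T3 plus siRNA, with overlapping groups (-0.11 with T3, adjusted p = 0.663). Its other probe did not behave alike: it measured 9.08, 9.58 and 9.60, then 10.02, 9.93 and 9.93, then 10.11, 10.30 and 10.15, and was called higher in both comparisons with euthyroid liver (0.54 and 0.76, adjusted p over all probes = 0.0346 and 0.00708). Trib3, a pseudokinase induced by ATF4, was split in the same way. Its brightest probe differed by 0.02 with T3, and its other probes by 0.68 and 0.90 (adjusted p over all probes = 0.0761 and 0.0755).

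**Figure D2:**
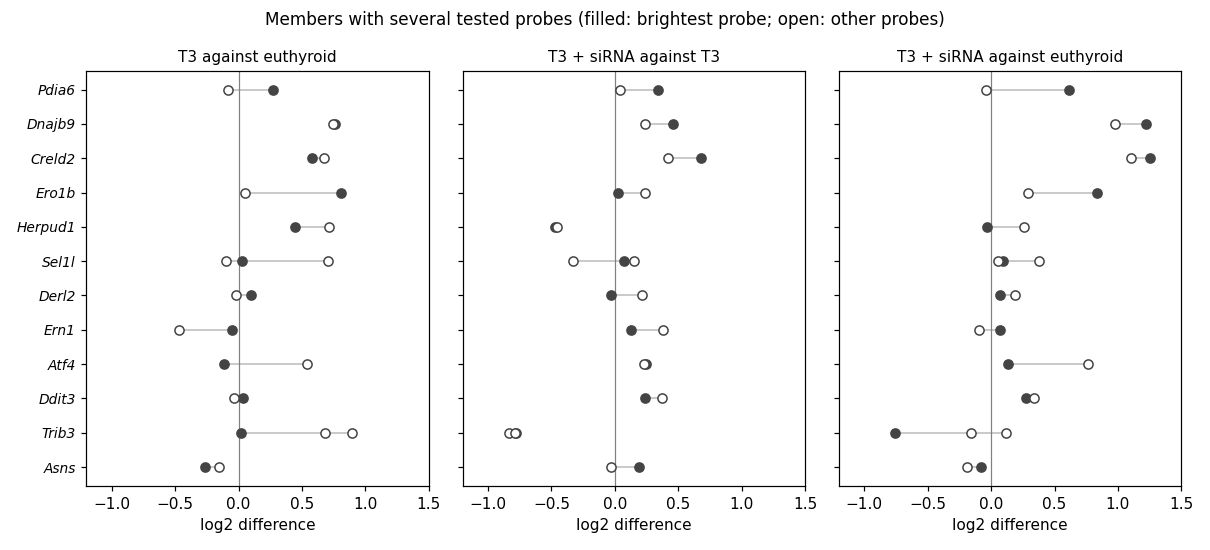
Log2 differences between group means (horizontal axes) in the 3 comparisons for the 12 members with several tested probes. Filled points are the brightest probe, which stands for the gene, and open points the other probes; for Atf4, Trib3, Sel1l and Ero1b the probes lie far apart in the T3 against euthyroid panel, while those of Dnajb9 and Creld2 lie close.

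Over the 14 other tested probes of these 12 genes, 4 were called higher with T3 and 1, that of Ern1, lower. Sel1l, the adaptor of the HRD1 degradation complex, had one of the 4: its brightest probe was level at 11.15 ± 0.09 and 11.18 ± 0.08, while another measured 8.71, 9.17 and 9.02 in euthyroid liver, 9.32, 9.95 and 9.74 with T3, and 9.17, 9.47 and 9.38 with T3 plus siRNA (0.70 with T3, adjusted p over all probes = 0.0282). Derl2, a second Derlin, was level on both of its probes, at 10.73 ± 0.08 and 10.83 ± 0.09 on the brightest.

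Of the exocrine pancreas markers, Cela2a and Amy2a5 were higher with T3 as well, while most could not be tested. Pancreas is a tissue rich in ER chaperones. Of 14 markers 3 could be tested, and their summed linear signal was 11735 to 14145 in euthyroid liver, 17763 to 18886 with T3 and 12601 to 15369 with T3 plus siRNA. Cela2a was called higher with T3 (1.65, adjusted p = 0.00298) and Amy2a5 too (0.45, adjusted p = 0.0344). The enzymes Prss2, Try4, Try5, Cela3b, Cpa1, Cpb1, Ctrb1 and Cel, which define acinar cells, had probes that were not above background on enough arrays to be tested. The group means of Hspa5, Hyou1, Herpud1, Derl2, Creb3l3, Trib3, Chac1 and Ppp1r15a were highest with T3 too. Those of all other tested members, most chaperones and folding enzymes among them, were not. Between T3 plus siRNA and T3 the 3 pancreas markers all had negative differences. Of the 13 tested chaperones and folding enzymes 11 had positive differences there and 2, Hspa5 and Hyou1, negative ones. The part of pancreas RNA in these values was not tested. Of the plasma cell and B cell markers 3 of 10 were tested, and limma called 0 of them in the 3 comparisons, also 0 at an unadjusted p below 0.05.

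T3 plus FoxO1 siRNA was then set against T3 alone, a comparison in which siRNA and injection cannot be told apart. Of the 32 tested, 3 were called higher (Pdia4, Syvn1 and Derl3), where 11.7% of all genes were, and 2 were called lower (Herpud1 and Creb3l3), where 7.72% were. Higher calls were 3 and lower calls 2 of 32, shares close to those of all genes. Among the 27 members above background on all 9 arrays 2 were higher and 2 lower. Pdia4 and Syvn1 were both lost without T3 replicate 1 or 2 or siRNA replicate 2 or 3. The 1 higher call left was then Derl3, which no T3 array measured, or, without siRNA replicate 3, Xbp1 in its place. Without siRNA replicate 1 there were 5 higher; the 2 lower became 1 without T3 replicate 2 or 3 or siRNA replicate 3. The median difference of the 32 was 0.12, against 0.01 over all genes. This comparison shares its T3 arrays with the comparison before it, and its siRNA arrays with the one below, so the 3 are not independent, and the values are set side by side only.

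Pdia4, a disulfide isomerase with an extra active site, measured 11.43, 11.30 and 11.23 in euthyroid liver, 11.34, 11.20 and 11.43 with T3, and 11.62, 11.88 and 11.82 with T3 plus siRNA. It was at one level in the first groups and above both with siRNA. Against T3 it was 0.45 higher (SE 0.11, 1.37-fold, adjusted p = 0.0231), lost in 7 of 19 alternatives, among them leaving out T3 replicate 1 or 2 or siRNA replicate 2 or 3 (highest adjusted p = 0.0711).

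Syvn1 encodes HRD1, the ubiquitin ligase of the degradation channel. It measured 12.36, 12.34 and 12.90 in euthyroid liver, 12.51, 12.25 and 12.73 with T3, and 13.003, 13.25 and 13.37 with T3 plus siRNA, all 3 of which lay above every other array. The difference from T3 was 0.71 (SE 0.19, 1.64-fold, adjusted p = 0.0279) and from euthyroid liver 0.67 (adjusted p = 0.0276). The first call was lost without T3 replicate 1 or 2 or siRNA replicate 2 or 3 (highest adjusted p = 0.0892), and the second without euthyroid replicate 1 or 2 or siRNA replicate 2 or 3 (highest adjusted p = 0.0948). Derl3 was called higher than with T3 (adjusted p = 0.00501), with the limit given above that no T3 array measured it.

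On its brightest probe Herpud1 was lower with T3 plus siRNA than with T3 (-0.48, SE 0.10, 1.39-fold, adjusted p = 0.0105). There it was level with euthyroid liver (-0.03, adjusted p = 0.832). Its second probe fell by 0.46 as well (adjusted p over all probes = 0.0467; 14.8% of probes were called). That probe stayed 0.26 above euthyroid liver with T3 plus siRNA (adjusted p over all probes = 0.184), with overlapping arrays. With median scaling the fall of the gene against T3 did not pass (adjusted p = 0.0648). Creb3l3 encodes CREBH, a liver factor that is released from the ER by cleavage in the manner of ATF6. It measured 11.49, 11.69 and 11.43 in euthyroid liver, 11.63, 11.77 and 11.80 with T3, and 11.38, 11.40 and 11.14 with T3 plus siRNA, the lowest 3 of the 9. It was lower than with T3 (-0.43, SE 0.12, adjusted p = 0.0308), lost in 6 of 19 alternatives, among them leaving out T3 replicate 2 or 3 or siRNA replicate 3 (highest adjusted p = 0.221).

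In the ATF4 arm 0 of 8 genes passed against T3 in limma (3 at an unadjusted p below 0.05, Atf3 higher and Trib3 and Ppp1r15a lower), and the spread between arrays was wide. Chac1, a glutathione-degrading enzyme induced by ATF4, measured 9.30, 10.86 and 10.03 in euthyroid liver, 10.48, 10.64 and 10.85 with T3, and 10.98, 9.80 and 7.65 with T3 plus siRNA. The siRNA arrays held both the highest and the lowest value of all 9, and the difference of -1.18 carried an SE of 0.71 (adjusted p = 0.275). Trib3 on its brightest probe measured 9.74, 9.99 and 9.25, then 9.64, 9.995 and 9.42, then 9.61, 8.77 and 8.33, with siRNA replicates 2 and 3 below all other arrays (-0.78, adjusted p = 0.115). Without siRNA replicate 1 its fall passed (adjusted p = 0.0234), and so did that of its second probe with all arrays (-0.84, adjusted p over all probes = 0.0451).

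Ppp1r15a, the phosphatase subunit GADD34 that ends eIF2-alpha phosphorylation, measured 7.51, 8.29 and 8.20, then 7.83, 8.06 and 8.33, then 7.69, 7.36 and 7.13. Its siRNA arrays lay below all T3 arrays (-0.68, SE 0.23, adjusted p = 0.068), and it passed in 4 of 19 alternatives. Asns, asparagine synthetase, measured 10.10, 10.75 and 10.08, then 9.88, 10.92 and 9.34, then 10.29, 9.77 and 10.64, and Ddit3, the factor CHOP, measured 7.55, 7.88 and 8.23, then 7.71, 7.73 and 8.33, then 8.18, 8.28 and 8.04. For Asns, and for Ddit3 on its brightest probe, all groups overlapped. A second probe of Ddit3 had its siRNA arrays at 8.15, 8.26 and 8.16, above every array of both other groups. It was not called in limma against T3 or euthyroid liver (adjusted p over all probes = 0.182 and 0.190).

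Set against euthyroid liver, T3 plus FoxO1 siRNA gave the largest number of calls. Of the 32 genes 14 were higher, where 13.4% of all genes were, and 0 were lower, where 13.3% of all genes were. The median difference was 0.22, against -0.02 over all genes. At an unadjusted p below 0.05 in limma 2 were lower, Trib3 and Ppp1r15a, and with array weights 1 passed. Chaperones and folding enzymes made up 10 of the 14: Hspa5, Calr, Pdia3, Pdia4, Pdia6, Dnajb9, Dnajc3, Sdf2l1, Creld2 and Ero1b. The others were Edem1 and Syvn1 of ER degradation and Atf3 and Ddit4 of the ATF4 arm. Among the 27 members above background on all 9 arrays 12 were higher. The count of 14 became 9, 9 and 8 without euthyroid replicates 1, 2 and 3, 8 and 7 without siRNA replicates 2 and 3, 12 without siRNA replicate 1, and 13 to 15 when a T3 array was left out. The calls of Hspa5, Calr, Pdia3, Dnajb9, Creld2, Ero1b and Edem1 held in every alternative in which they were tested. Those of Pdia4, Pdia6, Dnajc3, Sdf2l1, Syvn1, Atf3 and Ddit4 were lost without siRNA replicate 3, and each in other alternatives as well.

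**Figure D3:**
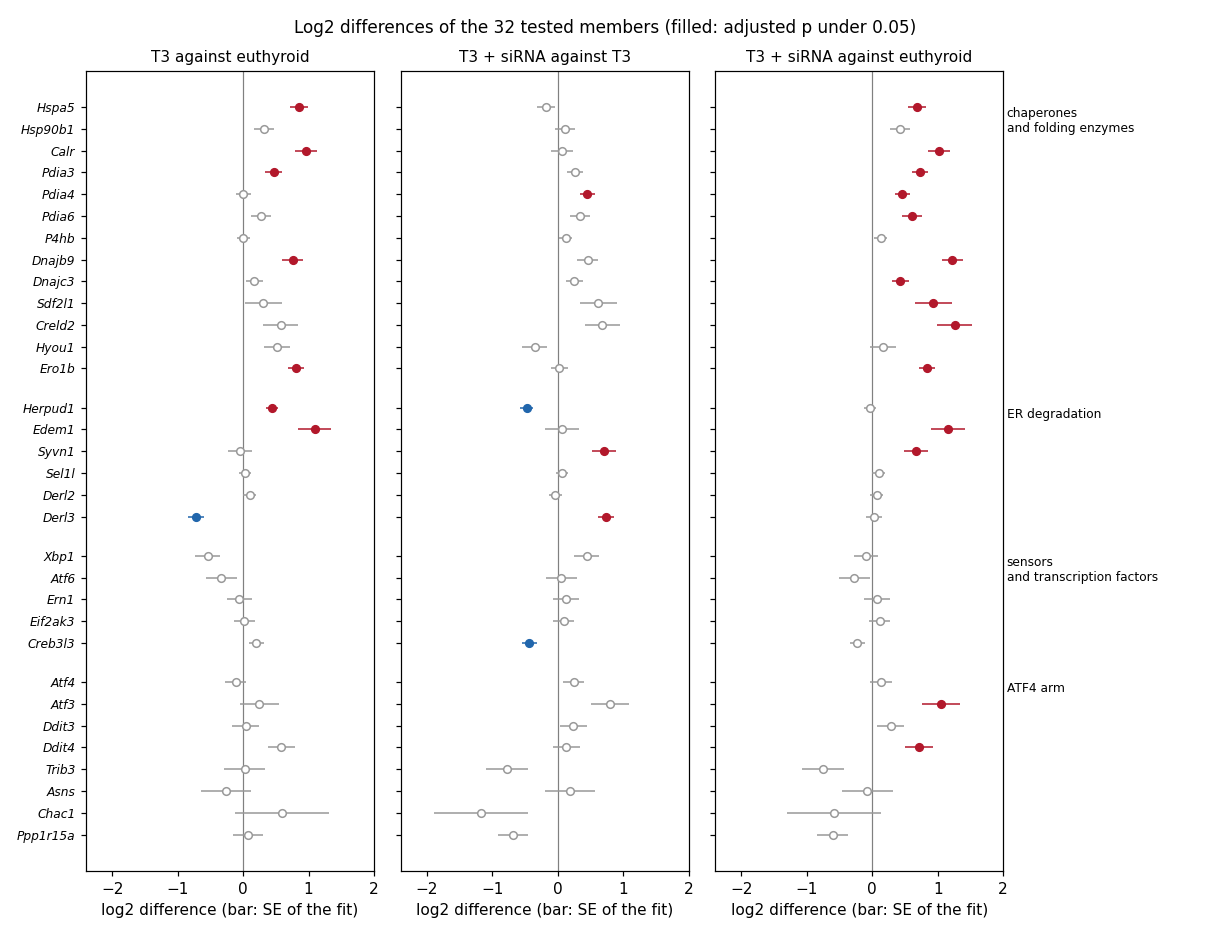
Log2 differences of group means (horizontal axes) with the SE of the fit for the 32 tested members, by role, in the 3 comparisons. Filled points have an adjusted p below 0.05 (red higher, blue lower); filled points gather to the right of 0 in the chaperone block of the right-hand panel, where 10 of 13 are called, and Derl3 was not above background on any T3 array.

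Creld2, a secreted ER chaperone, measured 9.74, 9.67 and 10.33 in euthyroid liver, 10.26, 10.59 and 10.60 with T3, and 10.57, 11.34 and 11.59 with T3 plus siRNA. All siRNA arrays were above all euthyroid arrays (1.26, SE 0.27, 2.39-fold, adjusted p = 0.00982), while the T3 group overlapped both neighbours and lay between (0.58 against euthyroid liver, adjusted p = 0.163). Its second probe was also called higher (1.10, adjusted p over all probes = 0.025), where 24.4% of probes were called. On that probe siRNA replicate 1, at 10.19, lay just below euthyroid replicate 3, at 10.20. Sdf2l1, a partner of BiP, measured 8.42, 8.16 and 7.87, then 8.47, 8.19 and 8.72, then 8.38, 9.35 and 9.52. Its siRNA replicate 1 lay within the euthyroid range, and the call (0.93, SE 0.29, adjusted p = 0.0402) was lost in 9 of 19 alternatives.

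Pdia6, another disulfide isomerase, measured 8.83, 8.73 and 8.32, then 8.71, 8.93 and 9.04, then 9.10, 9.25 and 9.36. The siRNA arrays were above all others on this probe (0.61, adjusted p = 0.0185), but a second, dimmer probe was level (-0.04), and with the mean of both the call was lost. Dnajc3, the BiP co-chaperone also known as an inhibitor of PERK, measured 11.06, 11.07 and 10.92, then 11.17, 11.12 and 11.26, then 11.15, 11.59 and 11.58 (0.42, adjusted p = 0.0411). That call was lost in 11 of 19 alternatives. Hsp90b1 measured 13.48, 13.59 and 13.44 in euthyroid liver and 13.81, 13.91 and 14.05 with T3 plus siRNA, without overlap, and did not pass (0.43, adjusted p = 0.0647), though it did in 8 of 19 alternatives.

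Atf3, a stress-induced repressor, measured 4.97, 5.56 and 5.14 in euthyroid liver, 4.71, 5.93 and 5.77 with T3, and 6.30, 6.11 and 6.39 with T3 plus siRNA. It was above background on 1, 2 and 3 arrays of these groups, so it too entered the test through the group in which it was high. The fit called it higher with T3 plus siRNA than in euthyroid liver (adjusted p = 0.0291), and no size is given for the same reason. Ddit4, an inhibitor of mTORC1 that responds to ATF4 and to glucocorticoids, measured 7.68, 7.79 and 7.45, then 7.92, 8.36 and 8.39, then 8.49, 7.91 and 8.66. Both T3 groups lay above the euthyroid arrays (0.59 with T3, adjusted p = 0.0797; 0.71 with T3 plus siRNA, adjusted p = 0.0334). The call with T3 plus siRNA was lost in 8 of 19 alternatives.

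Taken as a mean over the 13 tested chaperones, each array can be placed by its distance from the euthyroid mean. The euthyroid arrays lay at -0.01, 0.00 and 0.02, the T3 arrays at 0.32, 0.51 and 0.56, and the siRNA arrays at 0.44, 0.76 and 0.85. The T3 groups overlapped each other through siRNA replicate 1, the lowest of its group, and both lay clear of euthyroid liver. The ATF4 arm showed no such order: its 7 genes detected on all arrays averaged -0.27, 0.31 and -0.04 in euthyroid liver, -0.03, 0.31 and 0.12 with T3, and 0.29, -0.22 and -0.46 with T3 plus siRNA, so that its spread within a group was as wide as that between groups.

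**Figure D4:**
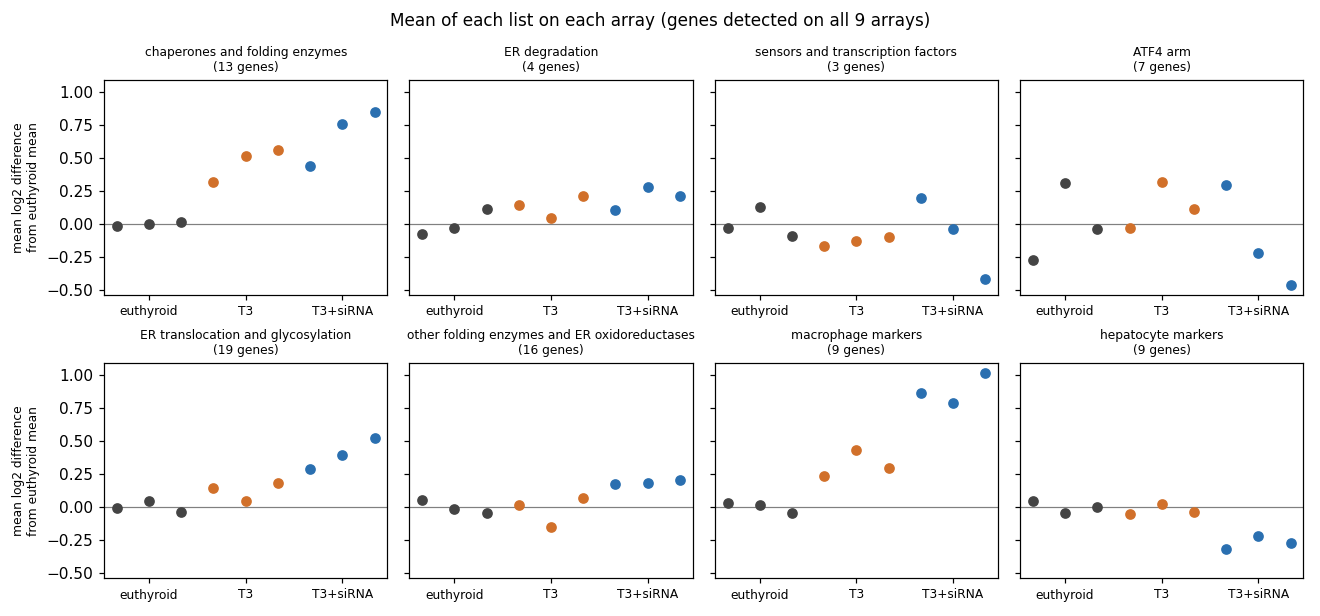
Mean log2 difference from the euthyroid mean (vertical axes) on each of the 9 arrays for the 4 roles, for 2 neighbouring gene lists and for macrophage and hepatocyte markers, over genes above background on all arrays. Points are arrays in replicate order. Chaperones, ER translocation and glycosylation genes and macrophage markers stand lowest in euthyroid liver, while the arrays of the ATF4 arm are mixed.

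Macrophage marker sums followed the same order of groups as these chaperone means, and their part in the chaperone values was not tested. As mean log2 differences from the euthyroid mean, siRNA replicates 1, 2 and 3 lay at 0.44, 0.76 and 0.85 for the chaperones. For the macrophage markers they lay at 0.86, 0.79 and 1.01 in the same order. Stellate cell markers moved between the groups too, with 0 higher and 5 lower of 10 in the first comparison and 6 higher and 2 lower in the second. Col1a1, a collagen chain, was one of them, with a log2 difference of -2.47 with T3 (adjusted p = 0.000613) and of 4.07 between T3 plus siRNA and T3 (adjusted p = 1.8e-05).

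Genes that work beside the members were read from 5 lists. Of all genes tested, 7.80% were called higher and 10.6% lower with T3. The shares were 11.7% and 7.72% with siRNA against T3, and 13.4% and 13.3% with T3 plus siRNA against euthyroid liver. Several counts of the lists were close to these shares, among them those of heat shock genes higher with T3. ER translocation and glycosylation (21 tested) had 2 higher and 0 lower with T3, 6 higher and 1 lower with siRNA against T3, and 10 higher and 0 lower with T3 plus siRNA against euthyroid liver. Ssr3, a subunit of the translocon-associated complex, measured 12.56, 12.67 and 12.57, then 12.99, 12.98 and 13.03, then 13.32, 13.27 and 13.49, 3 separate levels that were called apart in every comparison. Ddost, a subunit of the oligosaccharyltransferase, measured 9.81, 9.87 and 9.65, then 10.03, 9.97 and 9.98, then 10.48, 10.47 and 10.61, and was called higher in both comparisons of the siRNA group (0.53, adjusted p = 0.00706, and 0.75, adjusted p = 0.00134).

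Other folding enzymes (16 tested) gave 0 calls with T3 (2 higher and 3 lower at an unadjusted p below 0.05), 6 higher with siRNA against T3 and 5 higher against euthyroid liver. Fkbp11, a prolyl isomerase of secretory cells, measured 11.07, 10.94 and 11.05, then 10.70, 9.89 and 10.69, then 11.41, 11.58 and 11.83, so that its T3 arrays were the lowest and its siRNA arrays the highest (1.17 against T3, adjusted p = 0.00638). The other ER degradation genes (16 tested) gave 0 calls with T3 (2 higher and 1 lower at an unadjusted p below 0.05), 1 lower (Faf2) with siRNA against T3, and 2 lower (Aup1 and Os9) against euthyroid liver. Heat shock genes outside the ER (14 tested, mostly cytosolic, with Hspd1 and Hspe1 of the mitochondrial chaperonin) gave 1 higher with T3 (Hspe1), 1 higher and 1 lower with siRNA against T3, and 3 higher against euthyroid liver.

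Other ATF4 targets and regulators of eIF2 (24 tested) gave 3 higher and 1 lower with T3, 1 higher and 3 lower with siRNA against T3, and 5 higher and 3 lower against euthyroid liver. Psat1, an enzyme of serine synthesis, measured 5.95, 7.69 and 6.76 in euthyroid liver, 8.63, 9.75 and 8.65 with T3, and 9.21, 9.23 and 9.25 with T3 plus siRNA, without overlap between euthyroid liver and either T3 group (2.21, adjusted p = 0.00934, and 2.43, adjusted p = 0.00416). Cebpb, a partner of ATF4, was 0.85 higher with T3 (adjusted p = 0.00243) and lower with T3 plus siRNA than with T3 (-0.72, adjusted p = 0.00287). Vldlr, a lipoprotein receptor, was lower in all 3 comparisons, with a log2 difference of -2.22 between T3 plus siRNA and euthyroid liver (adjusted p = 0.0005). Counts of these lists describe the genes chosen and are not tests of the pathways.

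**Figure D5:**
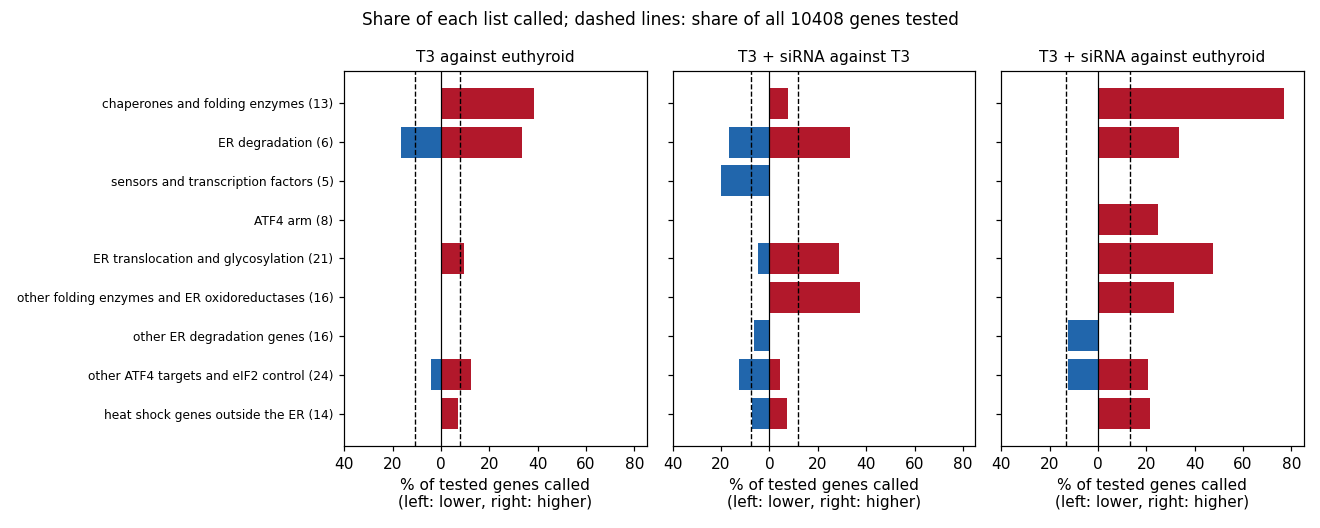
Share of tested genes called higher (bars to the right) and lower (bars to the left), in percent, for the 4 roles and the 5 neighbouring lists, with the number of genes tested in brackets. Dashed lines are the shares of all 10408 genes; the chaperone bar passes the line on the right in the left and right panels and stays below it in the middle one.

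The promoter elements can be set beside these values. Of the 9 tested genes with an ERSE, 3 were higher and 1 lower with T3, 2 higher with siRNA against T3, and 7 higher with T3 plus siRNA against euthyroid liver. Derl3, near background, was the gene lower with T3 and 1 of the 2 higher against T3. Of all genes 7.80%, 11.7% and 13.4% were called higher in the 3 comparisons, and 10.6% lower with T3. In the last comparison the median difference of the 9 was 0.67. That of the 21 tested members with a promoter but no ERSE was 0.11, with 7 of the 21 called higher. The 9 are mostly chaperones and folding enzymes and the 21 hold the whole ATF4 arm, so element and role cannot be told apart. Pdia3, Pdia4, Dnajb9 and Sdf2l1, also chaperones and folding enzymes, had no match in the window and were called there as well. P4hb had no match either and was not called. The element was also in 25 other genes of the promoter set, and 5 of these were tested, of which 1 was higher and 1 lower in each comparison. The counts are a description of 250 bases per gene and do not show binding.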

How the data were processed

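Per the file headers, the authors deposited linear signal intensity and a detection p-value for each of 45281 probes and 9 arrays, not normalised. They also deposited normalised intensities of the same arrays, used as an alternative. The submitters' processing notes name Partek 6.6 without its step. Groups and replicate numbers come from the sample titles. In R 4.3.3 with limma 3.58.1, neqc corrected the background with 936 negative controls implied by the detection p-values, used an offset of 16, normalised by quantiles and took log2 of the deposited intensity values. Probes with a detection p-value below 0.05 on at least 3 arrays were kept (18581), and a gene was represented by its brightest probe with 1 symbol (10408 genes; 34885 probes have 1 symbol, 18 several, 10378 none). All 9 arrays entered 1 linear model with 3 group means (lmFit, eBayes), tested two-sided with Benjamini-Hochberg adjustment and a threshold of 0.05; a second fit ran over all kept probes. The fit was tested on simulated data. Ero1l and Ero1lb of the member list were matched to their current symbols, Ero1a and Ero1b, in the probe annotation.

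Members past the threshold, the sensors and transcription factors and the tested ATF4 arm are given array by array, and up to 4 called genes of a neighbouring list and comparison are named. The members and lists were chosen with earlier results of these data known. Alternatives changed the background step, offset, scaling, filter, probe rule, array weights, arrays fitted and replicate block, and left out each array in turn. Proteins were not analysed here.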

Additional observations from a re-analysis of the deposited data

How the results depend on the processing

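Over 19 alternatives, 11 of the 27 calls of members held wherever they were tested and 16 were lost at least once; the cause was not tested. Of 69 uncalled results 16 passed at least once, and 0 calls reversed. Median scaling in place of quantiles gave 916 genes called for T3 against euthyroid liver (1917 in the main analysis), 1778 for T3 plus siRNA against euthyroid liver (2779) and 0 members lower for T3 plus siRNA against T3 (2). It moved the share of calls that were higher from 42.4% to 32.9%, from 60.3% to 88.7% and from 50.3% to 73.6% in the 3 comparisons, and the median of all genes to 0.17 for T3 plus siRNA against T3. Members lower with T3 were 2 (main 1) with no background correction, an offset of 50, the authors' normalised values, array weights or only the groups compared, the added one being Xbp1, and 0 when detection on all 9 arrays was asked. Members lower against T3 were 1 with no filter or only the groups compared. With array weights 1 member was lower against euthyroid liver (main 0). With 1 array left out, genes called ranged from 896 to 2033, 1147 to 1774 and 1695 to 2943 in the 3 comparisons, members higher from 3 to 9, 1 to 5 and 7 to 15, and members lower from 0 to 1, 1 to 3 and 0 to 1. Same-numbered arrays did not deviate together (9 correlations from -0.0557 to 0.0284). The labels do not say what a number marks, and these correlations cannot show whether same-numbered arrays share a day or litter. With the replicate block 1522, 1659 and 2364 genes were called, members higher were 7, 3 and 11 and members lower 1, 2 and 0. The files name no slides, so the slide block was not run. Derl3, Edem1, Atf3, Atf6 and Eif2ak3 lay near background, which limits their differences.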
